A study of Mus musculus with 8 samples.

Results

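The 10 genes described here encode enzymes and partners of DNA methylation, together with Asxl1, and several of them are genes in which blood clones carry mutations in clonal hematopoiesis. They were chosen by symbol and not by any measured value: Dnmt1, Uhrf1, Dnmt3a, Dnmt3b, Tet1, Tet2, Tet3, Idh1, Idh2 and Asxl1. All 10 were found among the 16119 genes of the count table, and all 10 passed the filter on low counts that left 15837 genes for testing. The table held RNA-seq counts from common DC progenitors (CDPs), the bone marrow (BM) cells from which dendritic cells arise. About 50000 CDPs per replicate were sorted as Lin-, c-Kit intermediate, Sca-1 low, CD115+ and Flt3+ cells. The HFD group (4 replicates) was wild-type males with diet-induced obesity (DIO), held on feed with 60 kcal% fat and labelled as fed for 16 weeks. The CF group (4 replicates) was males on 10 kcal% fat, labelled as age- and diet-matched DIO controls. Both are labelled C57BL/6, and the methods of the study give the substrain C57BL/6J. The labels name no engineered allele in either group and do not say how many mice gave 1 replicate. The p-values therefore measure the spread between these 8 libraries only. In bulk RNA of this kind, fewer cells of a type and less RNA per cell cannot be told apart.

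DNA methylation is written on cytosines that stand before a guanine (CpG sites). Dnmt1 copies the methylation of the old strand onto the new strand after replication, and Uhrf1 brings it to the half-methylated sites. Dnmt3a and Dnmt3b place methyl groups on unmethylated sites, and Tet1, Tet2 and Tet3 oxidise them, which leads to their loss. The Tet enzymes use 2-oxoglutarate, the product of the isocitrate dehydrogenases Idh1 in the cytosol and Idh2 in mitochondria, and mutant forms of these make a related acid that blocks the Tet enzymes. Asxl1 is a chromatin protein that works with the deubiquitinase Bap1 and has ties to Polycomb repression. In people, mutations of DNMT3A, TET2 and ASXL1 are the usual ones in clonal hematopoiesis. The libraries measure RNA levels, not mutations or methylation.

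The libraries held between 28203651 and 38969160 counts in HFD and between 32575696 and 48409689 in CF, and protein-coding genes took 38.9% to 41.9% of them in HFD and 28.3% to 42.0% in CF. The sort markers were present in all 8 libraries. Levels below are in CPM (counts of a gene relative to all counts of its library) after scaling by TMM, a method that puts libraries of different composition on a common scale. Kit, the receptor of stem cell factor, lay between 34.2 and 53.6 CPM in HFD and between 40.3 and 52.5 CPM in CF. Csf1r, which encodes CD115, lay between 79.4 and 111.9 CPM in HFD and between 101 and 132.9 CPM in CF, and Ly6a, which encodes Sca-1, between 1.37 and 3.25 CPM over all libraries. Flt3 was at 88.8 CPM in HFD replicate 1, against 227.5 to 315.6 CPM in CF and 235.3 to 378 CPM in the other HFD replicates. HFD replicate 1 also stood apart by its neutrophil genes, as all 15 of 15 on that list were highest there. The summed level of that list ran from 984.1 to 20960 CPM in HFD and from 2006 to 6727 CPM in CF. S100a8 of this list was at 5155, 900.8, 328.3 and 244.9 CPM in HFD replicates 1 to 4 and at 538.5, 1778, 1635 and 1542 CPM in CF replicates 1 to 4. All 8 erythroid genes and all 5 granulocyte progenitor genes were highest in HFD replicate 1 as well. Values without HFD replicate 1, or from a fit with the neutrophil list as covariate, are given for the genes named with them below.

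The promoters of the maintenance pair Dnmt1 and Uhrf1 are shown because these genes had the steadiest levels of all 10, as given below, and because their promoters alone among the 10 genes held a word of the E2F motif. E2F factors drive genes of DNA replication. The sequences come from RefSeq on GRCm38.p6 and run from 250 bases before a start site to 50 after it, and capitals mark the E2F words (TTTCGCGC, TTTGGCGC, TTTCCCGC or TTTGCCGC, searched on both strands).
Dnmt1, chr9:20952574-20952873, minus strand: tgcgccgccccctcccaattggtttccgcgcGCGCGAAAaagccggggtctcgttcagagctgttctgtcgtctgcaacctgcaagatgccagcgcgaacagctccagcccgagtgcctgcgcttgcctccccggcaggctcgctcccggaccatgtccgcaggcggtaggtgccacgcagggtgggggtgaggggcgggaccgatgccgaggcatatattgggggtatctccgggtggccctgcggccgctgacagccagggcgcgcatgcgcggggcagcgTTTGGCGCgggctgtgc
Uhrf1, chr17:56304063-56304362, plus strand: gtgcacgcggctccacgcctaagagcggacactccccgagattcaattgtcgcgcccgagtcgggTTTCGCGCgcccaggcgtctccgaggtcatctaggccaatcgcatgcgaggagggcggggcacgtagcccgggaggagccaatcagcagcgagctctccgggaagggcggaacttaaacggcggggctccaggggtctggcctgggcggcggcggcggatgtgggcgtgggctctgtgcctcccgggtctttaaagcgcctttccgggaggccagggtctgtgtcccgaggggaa

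The Dnmt1 window held 2 E2F words (GCGCGAAA is TTTCGCGC on the other strand) and 33 CpG sites, and the Uhrf1 window held 1 word and 33 CpG sites. Of all 32851 promoters in the RefSeq table, 2.26% held such a word. RefSeq lists 16 starts for the 10 genes, 3 of them for Dnmt1, and the other starts of both genes held no E2F word. The GC box (GGGCGG on either strand) was in 14 of the 16 promoters and in at least 1 promoter of each of the 10 genes, against 35.7% of all promoters. CpG counts were above the median of all promoters, 7, in 15 of the 16, from 12 at the second Dnmt1 start to 57 at Tet2. These matches are descriptions of the windows, and counts per gene do not separate the starts.

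No difference between HFD and CF passed the test for any of the 10 genes. In edgeR's quasi-likelihood test over all 15837 genes, 0 of the 10 passed an adjusted p of 0.05, where 0.423% of all genes did, and their adjusted p-values lay between 0.812 and 0.987. At an unadjusted p below 0.05 the count was also 0 of 10, where 8.56% of all genes passed (5.34% lower and 3.22% higher in HFD). That count was 2 with the neutrophil list as covariate (Dnmt3b and Idh1), where 14.2% of all genes passed, and 1 with the S phase list as covariate (Asxl1), where 8.78% did. It was 0 with protein-coding genes alone, where 252 of 11779 genes passed as lower and 285 as higher in HFD. No adjusted p of the 10 was below 0.308 in any of these settings. The 4 HFD libraries overlapped the 4 CF libraries for every one of the 10, while 6.16% of all genes had diets that did not overlap. By sign, 5 were higher in HFD and 5 lower, where 59.7% of all genes and 64.6% of protein-coding genes were higher. Their median log2 fold change was 0.01, beside 0.05 over all genes tested and 0.07 over protein-coding genes. The intervals below give the sizes of difference that these libraries leave possible.

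**Figure D1:**
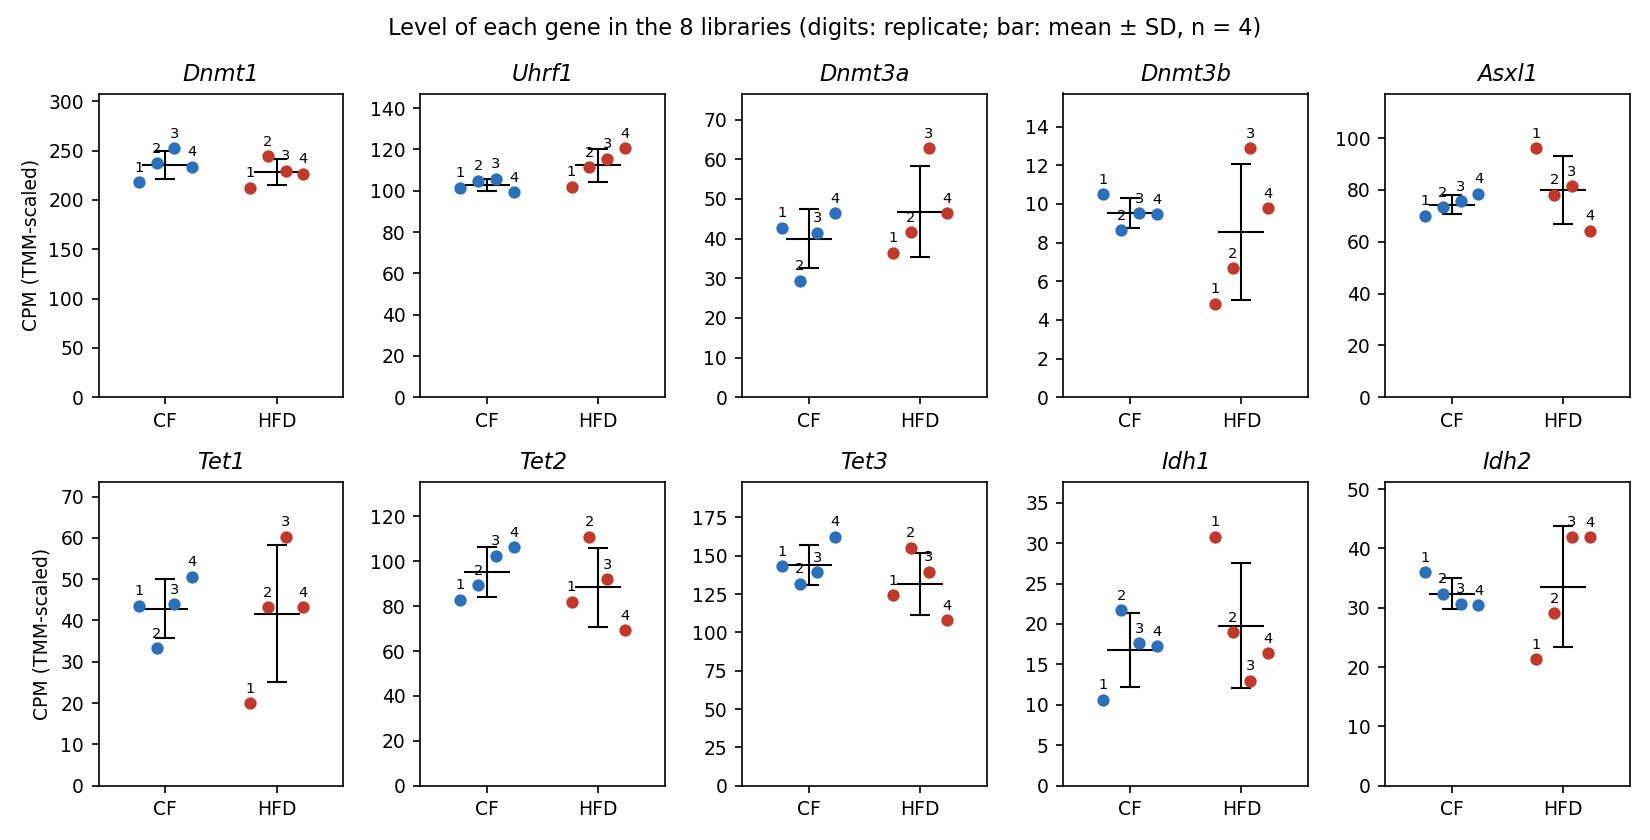
TMM-scaled CPM of each of the 10 genes (vertical axes from 0) in the 4 CF and 4 HFD libraries, with digits for the replicate and bars for the mean ± SD (n = 4). The diets overlap in every panel, and HFD replicate 1 is the lowest library for Dnmt1, Dnmt3b, Tet1 and Idh2 and the highest for Idh1 and Asxl1.

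Dnmt1 (ENSMUSG00000004099, chromosome 9, 20907209 to 20959888 on GRCm38, minus strand) had 212.4, 244.5, 229.5 and 226.4 CPM in HFD replicates 1 to 4 and 217.7, 236.9, 252.3 and 233.6 CPM in CF replicates 1 to 4. The lowest library was HFD replicate 1 and the highest CF replicate 3, only 1.19-fold apart. HFD libraries averaged 228.2 ± 13.2 CPM and CF libraries 235.1 ± 14.2 CPM (SD, n = 4 each). The log2 fold change was -0.04 (95% interval -0.27 to 0.19, edgeR adjusted p = 0.962), which leaves room for a change from 0.828-fold to 1.14-fold.

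Uhrf1 (ENSMUSG00000001228, chromosome 17, 56303321 to 56323486, plus strand) was measured at 101.9, 111.5, 115.6 and 120.6 CPM in HFD and at 101.4, 104.9, 105.9 and 99.4 CPM in CF. Of the HFD libraries, 3 lay above all CF libraries, and HFD replicate 1 lay among them. HFD averaged 112.4 ± 7.94 CPM and CF 102.9 ± 3.04 CPM (SD, n = 4 each). The log2 fold change was 0.13 (95% interval -0.08 to 0.33, edgeR adjusted p = 0.812), the lowest adjusted p of the 10, and 0.17 without HFD replicate 1 (edgeR adjusted p = 0.421). Its log2 CPM was compared by the exact two-sided permutation test over libraries as well (p = 0.0857), where 4 against 4 can give no p below 0.0286. Uhrf1 is expressed mainly in dividing cells. The list of 30 S phase genes summed to between 1680 and 2013 CPM in HFD and between 1592 and 1648 CPM in CF, with HFD replicate 4 highest for 19 of the 30. HFD replicate 4 was also the highest library for Uhrf1. Without that library, Uhrf1 was at a log2 fold change of 0.05. With the S phase list as covariate it was 0.0032 (edgeR adjusted p = 0.996), but the summed level of that list did not overlap between the diets, so that the covariate and the diet cannot be told apart.

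Across all 8 libraries Dnmt1 and Uhrf1 varied least of the 10. The SD of log2 CPM was 0.08 for Dnmt1 and 0.10 for Uhrf1, beside a median of 0.32 over all genes tested, which puts them at percentiles 1.3 and 3.0 of all genes. The ratio of Dnmt1 to Uhrf1 counts in a library was 2.08, 2.19, 1.98 and 1.88 in HFD and 2.15, 2.26, 2.38 and 2.35 in CF. It was thus lower by 0.17 on the log2 scale in HFD, with HFD replicate 2 above CF replicate 1 (two-sided exact permutation p = 0.0571, and 0.214 after adjustment over the 5 ratios).

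Dnmt3a (ENSMUSG00000020661, chromosome 12, 3806007 to 3914443, plus strand), the de novo enzyme most often mutated in clonal hematopoiesis, had 36.5, 41.5, 62.8 and 46.4 CPM in HFD and 42.7, 29.3, 41.5 and 46.4 CPM in CF. HFD replicate 3 was high and CF replicate 2 low, and the other libraries of both diets lay side by side. HFD averaged 46.8 ± 11.4 CPM and CF 39.99 ± 7.41 CPM (SD, n = 4 each), with a log2 fold change of 0.23 (95% interval -0.22 to 0.67, edgeR adjusted p = 0.848). It was 0.33 without HFD replicate 1 (edgeR adjusted p = 0.455), 0.05 without HFD replicate 3 and 0.10 without CF replicate 2. The antisense gene Dnmt3aos shares 133 nt of its exons with it, and the files do not say whether counting used strand.

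Dnmt3b (ENSMUSG00000027478, chromosome 2, 153649450 to 153687730, plus strand), the other de novo enzyme, was the least abundant of the 10, with 151 to 491 counts per library. It was at 4.85, 6.67, 12.9 and 9.78 CPM in HFD and at 10.5, 8.65, 9.51 and 9.46 CPM in CF. The HFD libraries spread over both sides of the CF libraries, which lay close together. The coefficient of variation was 41.4% in HFD and 7.9% in CF, where counting alone would give 5.55%. The log2 fold change was -0.16 (95% interval -0.78 to 0.47, edgeR adjusted p = 0.944), and it turned to 0.04 without HFD replicate 1 and was -0.42 without HFD replicate 3. The ratio of Dnmt3a to Dnmt3b was 7.5, 6.21, 4.87 and 4.74 in HFD and 4.07, 3.39, 4.36 and 4.90 in CF. On the log2 scale it was 0.47 higher in HFD, where CF replicate 4 lay above HFD replicates 3 and 4 (two-sided exact permutation p = 0.0857, and 0.214 after adjustment over the 5 ratios).

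Tet1 (ENSMUSG00000047146, chromosome 10, 62804570 to 62908996, minus strand) had the widest range of the 10 genes. It was at 19.99, 43.2, 60.3 and 43.2 CPM in HFD and at 43.5, 33.2, 43.9 and 50.6 CPM in CF, so that HFD replicate 1 was lowest and HFD replicate 3 highest, 3.01-fold apart. HFD averaged 41.7 ± 16.5 CPM and CF 42.8 ± 7.16 CPM (SD, n = 4 each). The log2 fold change was -0.04 (95% interval -0.71 to 0.63, edgeR adjusted p = 0.987) and turned to 0.19 without HFD replicate 1, with -0.27 without HFD replicate 3.

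Tet2 (ENSMUSG00000040943, chromosome 3, 133463679 to 133545139, minus strand), the Tet enzyme mutated in clonal hematopoiesis, was at 81.9, 110.9, 91.9 and 69.1 CPM in HFD and at 82.9, 89.3, 102.5 and 106.2 CPM in CF. HFD held both the highest and the lowest library, replicates 2 and 4. HFD averaged 88.5 ± 17.6 CPM and CF 95.2 ± 11 CPM (SD, n = 4 each), and the log2 fold change was -0.11 (95% interval -0.46 to 0.25, edgeR adjusted p = 0.932). Leaving out HFD replicate 2 gave -0.23 and leaving out HFD replicate 4 gave -0.05. Changes below 0.726-fold or above 1.19-fold lie outside that interval.

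Tet3 (ENSMUSG00000034832, chromosome 6, 83362373 to 83459084, minus strand) was the most abundant Tet gene, with 124.4, 155.2, 139.6 and 108.0 CPM in HFD and 143.0, 131.7, 139.2 and 162.4 CPM in CF. As for Tet2, HFD replicate 4 was lowest, while the highest library was CF replicate 4. The log2 fold change was -0.13 (95% interval -0.43 to 0.17, edgeR adjusted p = 0.883), with -0.22 without HFD replicate 2 and -0.07 without CF replicate 4. Tet2 and Tet3 kept nearly 1 proportion across the libraries, with a Tet2 to Tet3 ratio of 0.658, 0.715, 0.658 and 0.640 in HFD and 0.579, 0.678, 0.737 and 0.654 in CF (difference 0.02 on the log2 scale, two-sided exact permutation p = 0.914, and 1 after adjustment over the 5 ratios). The Tet1 to Tet2 ratio ranged more widely, from 0.244 in HFD replicate 1 to 0.656 in HFD replicate 3, and from 0.373 to 0.525 in CF (difference -0.01 on the log2 scale, exact p = 1). This difference was 0.28 without HFD replicate 1 (exact permutation p = 0.286).

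Idh1 (ENSMUSG00000025950, chromosome 1, 65158616 to 65186500, minus strand), the cytosolic enzyme, was at 30.8, 19.0, 12.96 and 16.4 CPM in HFD and at 10.6, 21.7, 17.6 and 17.2 CPM in CF. HFD replicate 1 was highest, at 1.79-fold the median of the other 7 libraries, and CF replicate 1 was lowest. HFD averaged 19.8 ± 7.74 CPM and CF 16.8 ± 4.59 CPM (SD, n = 4 each). The log2 fold change was 0.24 (95% interval -0.44 to 0.91, edgeR adjusted p = 0.915) and turned to -0.06 without HFD replicate 1, with 0.07 without CF replicate 1 and 0.39 without HFD replicate 3.

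Idh2 (ENSMUSG00000030541, chromosome 7, 80094846 to 80115392, minus strand), the mitochondrial enzyme, was at 21.3, 29.1, 41.98 and 41.9 CPM in HFD and at 36.02, 32.4, 30.7 and 30.4 CPM in CF. HFD replicates 1 and 2 lay below all CF libraries and HFD replicates 3 and 4 above them. HFD averaged 33.6 ± 10.2 CPM and CF 32.4 ± 2.57 CPM (SD, n = 4 each), with a log2 fold change of 0.05 (95% interval -0.42 to 0.53, edgeR adjusted p = 0.98) and 0.22 without HFD replicate 1, but -0.07 without HFD replicate 3 and -0.11 without HFD replicate 4. The ratio of Idh1 to Idh2 was 1.44, 0.653, 0.309 and 0.391 in HFD and 0.295, 0.670, 0.575 and 0.566 in CF. Idh1 exceeded Idh2 in counts in HFD replicate 1 and in no other library, and the libraries of the diets overlapped (difference 0.21 on the log2 scale, two-sided exact permutation p = 0.714, and 1 after adjustment over the 5 ratios). The difference turned to -0.23 without HFD replicate 1 (exact permutation p = 0.6).

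Asxl1 (ENSMUSG00000042548, chromosome 2, 153345829 to 153404007, plus strand), the chromatin gene of the list, was at 96.1, 78.2, 81.5 and 64.3 CPM in HFD and at 70, 73.4, 75.6 and 78.5 CPM in CF. HFD replicate 1 was highest and HFD replicate 4 lowest. HFD averaged 80.0 ± 13 CPM and CF 74.4 ± 3.57 CPM (SD, n = 4 each), with a log2 fold change of 0.11 (95% interval -0.18 to 0.39, edgeR adjusted p = 0.908) that was 0.01 without HFD replicate 1. Asxl1 shares 197 nt of its exons, 2.65%, with 2500004C02Rik on the opposite strand, whose reads may be counted in it.

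**Figure D2:**
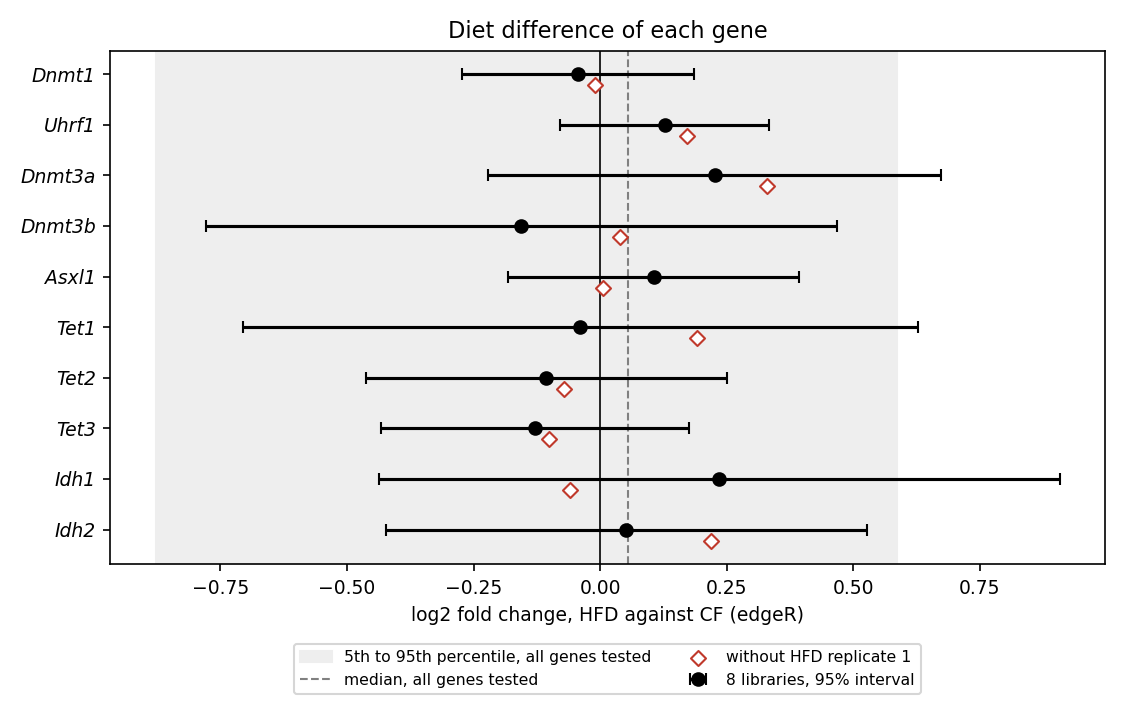
Log2 fold change of each gene in HFD against CF (horizontal axis, edgeR), with dots and bars for the estimate and 95% interval from 8 libraries and diamonds for the estimate without HFD replicate 1. All 10 intervals include 0, and the diamonds of Dnmt3b, Tet1 and Idh1 lie on the other side of 0 from their dots.

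The spread among HFD replicates was larger than among CF replicates for most of the 10. The coefficient of variation was higher in HFD for 9 of the 10 genes, Dnmt1 being the exception with 5.78% against 6.04%, while it was higher in HFD for 67.5% of all genes tested. Idh2 had 30.3% in HFD and 7.94% in CF, Asxl1 16.3% and 4.81%, and Tet1 39.7% and 16.7%. Without HFD replicate 1, Tet1 had 20.1% and Idh2 19.7% in HFD, and Idh1, with 39.1% over 4 libraries, had 18.8%, below its 27.3% in CF. The coefficient was then higher in HFD for 8 of the 10 genes and for 52.9% of all genes. No test of this difference in spread was made. Counting error, which treats reads as independent, was between 1.11% for Dnmt1 and 5.55% for Dnmt3b.

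Many of the 10 genes had their highest or lowest level in an HFD library at or near an end of the neutrophil list. HFD replicate 1, with the highest neutrophil level, was lowest for 4 of the 10 (Dnmt1, Dnmt3b, Tet1 and Idh2) and highest for 2 (Idh1 and Asxl1). This was not particular to the 10. In the lists described below, the same library was lowest for 15 and highest for 5 of 38 methylation partners. It was lowest for 13 and highest for 13 of 43 Polycomb partners, and lowest for 16 and highest for 12 of 46 other clonal hematopoiesis genes. The share over all genes was not counted. In HFD replicate 1, Tet1 was 0.459-fold, Dnmt3b 0.51-fold and Idh2 0.657-fold the median of the other 7 libraries. HFD replicate 3, with the second lowest neutrophil level, was highest for 4 (Dnmt3a, Dnmt3b, Tet1 and Idh2). HFD replicate 4, with the lowest neutrophil level and the highest S phase level, was lowest for 3 (Tet2, Tet3 and Asxl1). Among the CF libraries, replicate 1 had the lowest neutrophil level, and it was the lowest of all 8 for Idh1. With the neutrophil list as covariate, the log2 fold changes of Dnmt3b, Tet1 and Idh2 were -0.40, -0.31 and -0.14, that of Idh1 was 0.38 and that of Dnmt3a 0.13, and none passed (edgeR adjusted p from 0.308 to 0.795). With the S phase list as covariate, Asxl1 was at 0.38, Idh1 at 0.47, Dnmt3b at -0.39 and Tet1 at -0.27 (edgeR adjusted p from 0.447 to 0.927).

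**Figure D3:**
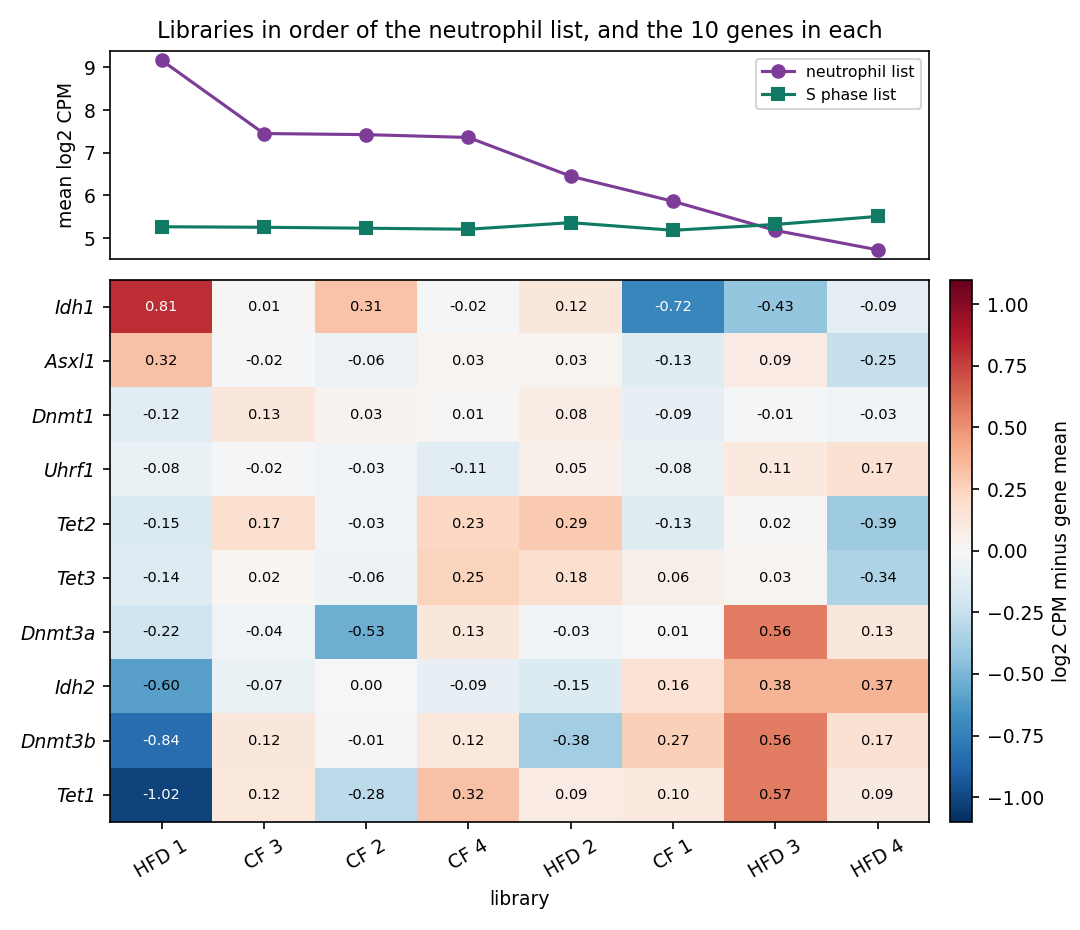
Upper panel, mean log2 CPM of the neutrophil and S phase lists (vertical axis) in the 8 libraries, ordered by the neutrophil list. Lower panel, log2 CPM of each of the 10 genes minus its mean over the libraries, from blue (low) to red (high). HFD replicate 1 is low for Tet1, Dnmt3b and Idh2 and high for Idh1, and HFD replicate 3 is high for Tet1, Dnmt3b and Dnmt3a.

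Levels of different genes were compared as CPM per kilobase (kb) of exon, over the 8 libraries. Dnmt1 was first with 31.4 ± 1.79 CPM per kb (SD, n = 8) and Uhrf1 second with 25.3 ± 1.77 CPM per kb. Each of these lay above the next gene in 8 of 8 libraries, with ranges that did not overlap. Idh2 at 12.7 ± 2.66, Asxl1 at 10.4 ± 1.26, Tet3 at 8.26 ± 1.02, Idh1 at 6.60 ± 2.20 and Tet2 at 5.44 ± 0.834 CPM per kb followed, and the ranges of neighbours among them overlapped. Idh1 exceeded Tet2 in 5 of 8 libraries, so the order of this pair did not hold beyond their spread. Tet1 at 2.73 ± 0.764, Dnmt3a at 2.61 ± 0.577 and Dnmt3b at 1.77 ± 0.475 CPM per kb came last, below the range of Tet2. Tet1 lay above Dnmt3a in 7 of 8 libraries and Dnmt3a above Dnmt3b in 8 of 8. The maintenance pair was thus above both de novo enzymes, and Tet3 and Tet2 above Tet1, in all 8 libraries.

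These levels depend on the length used. The exons of all annotated transcripts together span 16642 nt for Dnmt3a and 16870 nt for Tet2. With the length of the longest transcript instead, Dnmt3a stood at 4.48 CPM per kb, above Tet1 at 2.94 CPM per kb. Tet3 at 12.7 CPM per kb then stood above Asxl1 at 11.1 CPM per kb, and Tet2 at 10.0 CPM per kb above Idh1 at 7.94 CPM per kb. Dnmt1, Uhrf1 and Idh2 stayed on top in this order and Dnmt3b last with either length.

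**Figure D4:**
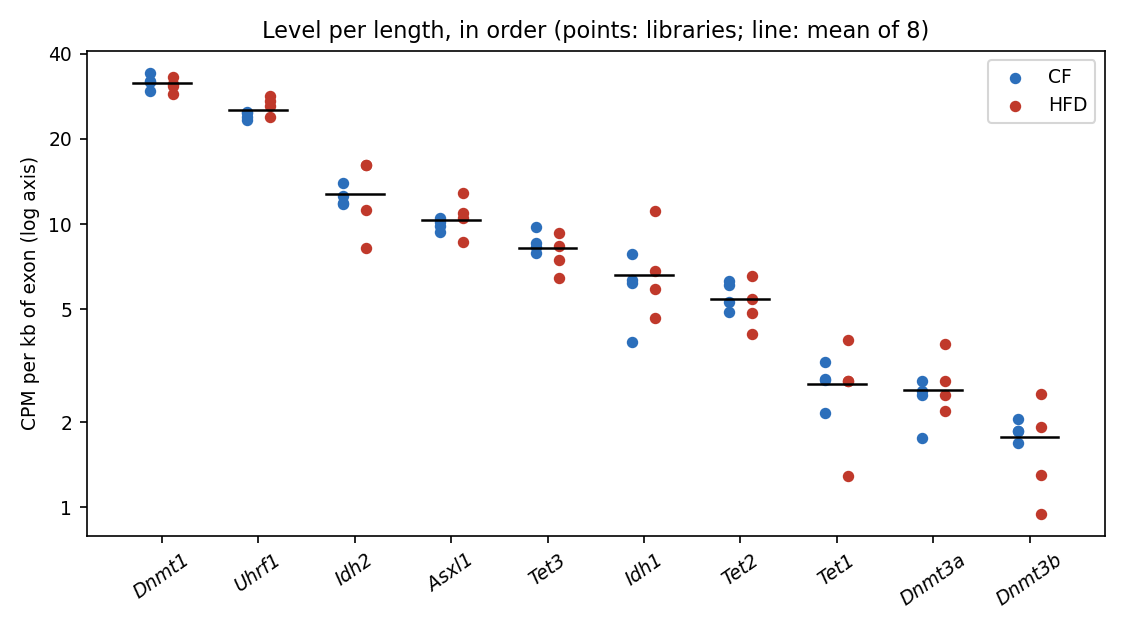
TMM-scaled CPM per kb of exon (log axis) for the 10 genes in order of their mean, with a point for each of the 4 HFD and 4 CF libraries and a line for the mean of 8. Dnmt1 and Uhrf1 stand above the other 8 genes in every library, and Tet1, Dnmt3a and Dnmt3b are lowest.

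The other genes of these pathways were described from 4 lists and the S phase list. Of the partners and readers of DNA methylation, 38 of 40 were tested, 0 were called, and 24 were higher and 14 lower by sign. Their median log2 fold change was 0.07, beside 0.05 over all genes and 0.07 over protein-coding genes, of which 64.6% were higher by sign. With the neutrophil list as covariate their median was 0.000793. The lowest p of this list belonged to Gadd45b, a stress-induced gene with a role in DNA repair and demethylation, at 6.29, 3.30, 2.49 and 3.59 CPM in HFD and 6.18, 6.84, 8.53 and 7.72 CPM in CF. Only HFD replicate 1 reached the CF libraries, and the log2 fold change of -0.90 did not pass (SE 0.28, edgeR adjusted p = 0.271). Without HFD replicate 1 it was -1.22 and passed (edgeR adjusted p = 0.0319), where 1.26% of all genes tested did. Gadd45a, chosen after its values were seen, was at 19.5, 4.03, 3.41 and 2.38 CPM in HFD and 7.34, 11.7, 10.8 and 12.3 CPM in CF. It too was high in HFD replicate 1 and below all CF libraries in the other HFD replicates, with a log2 fold change of -0.53 over 8 libraries (adjusted p = 0.906, edgeR) and -1.69 without HFD replicate 1 (edgeR adjusted p = 0.0217). Neutrophil levels were lower in those 3 HFD libraries than in CF replicates 2 to 4, and with the neutrophil list as covariate Gadd45b was at -0.81 (edgeR adjusted p = 0.0386), where 4.25% of all genes passed. Gadd45a did not pass with that covariate. Zbtb33, which encodes the methyl-CpG binding protein Kaiso, was at a log2 fold change of 0.46 (adjusted p = 0.599, edgeR), and Zbtb38, of the same family, 0.48 (edgeR adjusted p = 0.773). Without CF replicate 3 they were at 0.28 and 0.24.

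Of the partners of Asxl1 and Polycomb, 43 of 44 were tested and 0 were called, with 25 higher and 18 lower by sign and a median of 0.03. The lowest p belonged to Mbd6 (log2 fold change -0.37, edgeR adjusted p = 0.585). Suz12, a core subunit of the Polycomb complex that methylates histone H3, was at 0.30 (edgeR adjusted p = 0.717), and at 0.16 without CF replicate 4. Of 46 other genes mutated in clonal hematopoiesis or related blood disease, all 46 were tested and 0 called, with 30 higher and 16 lower by sign and a median of 0.03. The Polycomb list and this list stood beside 64.6% higher and a median of 0.07 over protein-coding genes.

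Setbp1, a gene mutated in myeloid disease, had the lowest p of any of these lists. It was higher in every HFD library than in any CF library, with 7.85 ± 2.36 CPM in HFD and 3.19 ± 0.894 CPM in CF (SD, n = 4 each). Its log2 fold change of 1.30 (SE 0.28) did not pass the test (edgeR adjusted p = 0.105). It passed with DESeq2 (adjusted p = 0.00148), as 3.58% of all genes did, and with the neutrophil list as covariate (edgeR adjusted p = 0.0315), as 4.25% did. It did not pass with voom (adjusted p = 0.116) or with protein-coding genes alone (edgeR adjusted p = 0.688). With the S phase list as covariate it was at 0.97 and did not pass (edgeR adjusted p = 0.564). Sh2b3, which encodes the adaptor Lnk that restrains cytokine signals, was at a log2 fold change of -0.33 (adjusted p = 0.453, edgeR), and Ppm1d, a phosphatase of the p53 pathway, 0.25 (edgeR adjusted p = 0.539).

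Of the genes of substrate and cofactor metabolism (the methyl donor, 2-oxoglutarate, vitamin C), 39 of 40 were tested and 0 called, with 31 higher and 8 lower by sign. Their median was 0.10, beside 0.07 over protein-coding genes, of which 64.6% were higher by sign. Mat2a, which makes the methyl donor S-adenosylmethionine, had 63.6 ± 22.3 CPM in HFD and 96.2 ± 4.88 CPM in CF (log2 fold change -0.60, edgeR adjusted p = 0.381). Idh3a, a subunit of the isocitrate dehydrogenase of the citric acid cycle, was higher in every HFD library than in any CF library (0.28, edgeR adjusted p = 0.535), but its value was 0.14 without HFD replicate 4. Slc23a2, a vitamin C transporter, was at a log2 fold change of 0.24 (adjusted p = 0.727, edgeR), and 0.14 without HFD replicate 2.

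Of the 30 S phase genes, 0 were called, 25 were higher and 5 lower by sign, where 64.6% of protein-coding genes were higher, and the median was 0.16. Without HFD replicate 4, the highest library for 19 of the 30, the median was 0.0525. Rfc4, a subunit of the clamp loader of replication, was at 14.2 ± 1.1 CPM in HFD and 10.2 ± 0.545 CPM in CF (SD, n = 4 each). Its diets did not overlap (log2 fold change 0.47, edgeR adjusted p = 0.124). Dnmt1 and Uhrf1, which act at replication forks, had log2 fold changes of -0.04 and 0.13 over 8 libraries, and of -0.08 and 0.05 without HFD replicate 4.

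**Figure D5:**
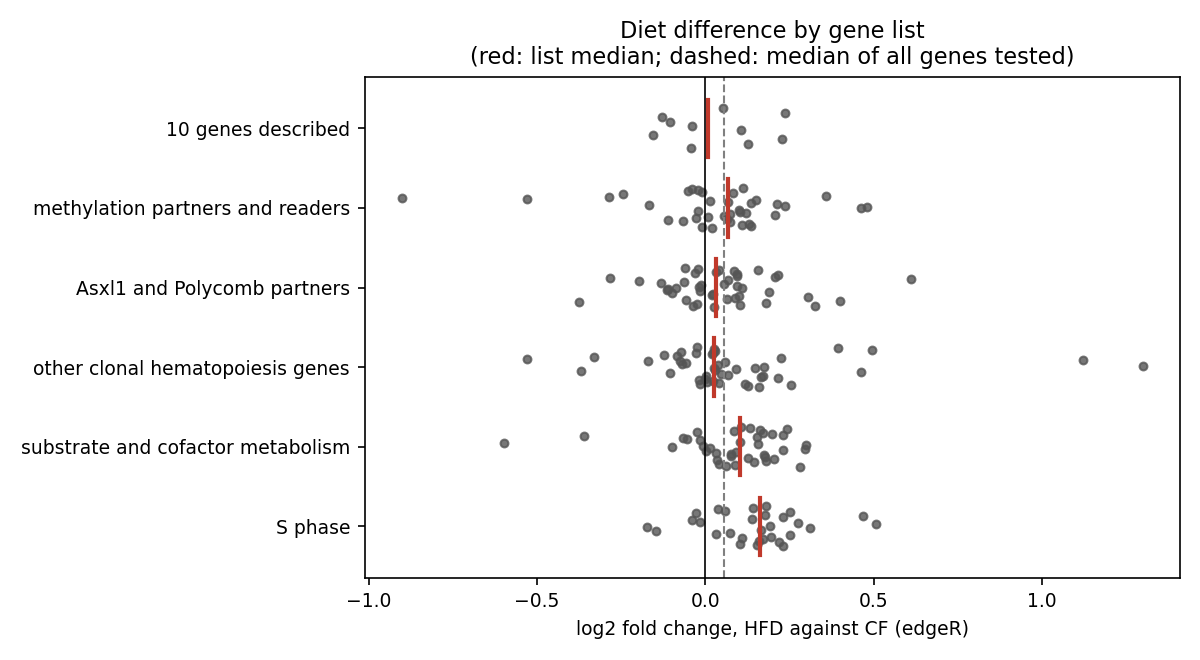
Log2 fold change in HFD against CF (horizontal axis, edgeR) of each tested gene in the 10 genes described and 5 lists, 1 point a gene, with the list median in red and the median of all genes tested dashed. The 10 genes lie between -0.16 and 0.24, and Setbp1 at 1.30 and Gadd45b at -0.90 are the farthest points of all lists.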

How the data were processed

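RNA of sorted CDPs was amplified and made into libraries with the NuGEN Ovation Solo system and sequenced in 8 libraries, 4 per diet. The authors aligned reads with HISAT2 to GRCm38, kept uniquely mapped pairs and deposited a StringTie table of raw counts per gene, in whole numbers, with no gene whose highest count was under 29. Tool versions are not given in the sources used here. Columns were matched to replicates by sample number.

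Genes were named by Ensembl identifier in GENCODE vM21, where 16067 of 16119 matched. Counts were filtered by filterByExpr, scaled by TMM and compared in edgeR 4.0.16 (R 4.3.3) by a robust quasi-likelihood test with the diet as the only term, with Benjamini-Hochberg adjustment over 15837 genes and a threshold of 0.05. Log2 CPM used a prior count of 2, and ratios a pseudocount of 0.5. Exact permutation tests covered the 70 ways to draw 4 of 8 libraries. Counting error covers sampling of reads only, as reads from amplified RNA are not independent molecules.

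The 10 genes and all lists were chosen with earlier results of these data known. Named genes were the 10, the 3 of lowest p in each of the 4 pathway lists, the sort markers and S100a8. 1 gene that the rule names is not reported here. Gadd45a, Gadd45g, Csf3r and Rfc4 were added once their values had been seen.

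The other settings were scaling by library size or by RLE, the tests of DESeq2 1.42.0 and voom (limma 3.58.1), other filters, protein-coding genes alone, a replicate block, the neutrophil or S phase list as covariate and left-out libraries. Tested on simulated data at these depths, edgeR recovered 84.7% of genes changed 4-fold and 29% of those changed 2-fold among 15762 genes, with 5.88% of calls false. No pair of libraries of the same diet agreed within sampling noise. Figures were drawn with matplotlib 3.10.9.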

Additional observations from a re-analysis of the deposited data

Results flagged for a closer look

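In CF, the mean log2 CPM of the neutrophil list was 5.86 in replicate 1 and 7.36 to 7.45 in the other 3 replicates, so that 1 library lay far from the others. Of 56 groups of 4 libraries checked (the 10 genes, their ratios and the lists in each diet), 1 stood out in this way, where chance gives about 1 in 20. In CF replicate 1, Idh1 was at 10.6 CPM, the lowest of the 8 libraries. None of the 10 genes themselves had a library that stood out by this measure in either diet.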

How the results depend on the processing

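In each of the 19 other settings 0 of the 10 genes were called, and the lowest adjusted p of any of them was 0.308 (Idh1, with the neutrophil list as covariate). The number of genes called overall was 67 at first, 108 with library size alone, 567 with DESeq2, 673 with the neutrophil list as covariate, 1 with the S phase list as covariate, 388 without HFD replicate 1 and CF replicate 1, and 0 with protein-coding genes alone. Of these, 98, 503, 565, 1, 350 and 0 were lower in HFD and 10, 64, 108, 0, 38 and 0 higher. Same-numbered libraries did not deviate together (correlations from -0.439 to -0.078), and no HFD library correlated best with the CF library of its own number. Neutrophil levels enter these correlations, as HFD replicate 1 had the highest level of its diet and CF replicate 1 the lowest. The check therefore cannot settle whether the numbers pair the libraries. With the replicate number as a block, 0 genes were called in place of 67, 0 lower and 0 higher.

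With library size alone the median of all genes moved to 0.25 and all 10 genes were higher in HFD, with reversed log2 fold changes of 0.15 for Dnmt1, 0.0527 for Dnmt3b, 0.15 for Tet1, 0.0771 for Tet2 and 0.0561 for Tet3. With the neutrophil covariate Idh2 was at -0.14. With the S phase covariate Tet2 was at 0.0343, Tet3 at 0.0471, Idh2 at -0.30 and Mbd6 at 0.018. Without HFD replicate 1 and CF replicate 1, Dnmt3b was at 0.0879, Tet1 at 0.20, Idh1 at -0.23, Idh2 (same sign as with 8 libraries) at 0.27 and Asxl1 at -0.0226, and the differences in log2 ratio were -0.04 for Tet2 to Tet3, 0.36 for Tet1 to Tet2 and -0.49 for Idh1 to Idh2. The causes were not tested.

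List medians with library size alone were 0.256 for methylation partners, 0.222 for Polycomb partners, 0.222 for other clonal hematopoiesis genes, 0.301 for metabolism and 0.351 for S phase. With protein-coding genes alone they were 0.0268 for methylation partners and -0.00792 for Polycomb partners, with the neutrophil covariate 0.000793 for methylation partners, and without both libraries 0.108. With the S phase covariate they were -0.0215 for methylation partners, 0.0256 for metabolism and -0.0163 for S phase. Setbp1 was called with library size alone, DESeq2 and the neutrophil covariate (1 gene of its list each), Rfc4 with DESeq2 (1), and Gadd45b with the neutrophil covariate (1). Without HFD replicate 1 and CF replicate 1, 3 methylation partners were called (Gadd45a, Gadd45b and Gadd45g, all lower in HFD) and 1 other clonal hematopoiesis gene (Csf3r, lower). Of all 15827 genes, 388 were called in that setting. The HFD libraries it keeps reach a mean log2 CPM of at most 6.45 for the neutrophil list, and the CF libraries it keeps at least 7.36. Diet and neutrophil level therefore cannot be told apart in these calls. Over all 8 libraries, Csf3r and S100a8 were both highest in HFD replicate 1 and lowest in HFD replicate 4.

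With each library left out in turn, genes called ranged from 0 to 200 (0 to 166 lower, 0 to 34 higher): 200 without HFD replicate 1, 154 without CF replicate 4 and at most 2 without any other. Log2 fold changes ranged from -0.08 to -0.01 for Dnmt1, 0.05 to 0.33 for Dnmt3a, -0.42 to 0.04 for Dnmt3b, -0.27 to 0.19 for Tet1, -0.23 to -0.05 for Tet2, -0.22 to -0.07 for Tet3, 0.05 to 0.17 for Uhrf1, -0.06 to 0.39 for Idh1, -0.11 to 0.22 for Idh2 and 0.01 to 0.16 for Asxl1. Ratio differences ranged from -0.20 to -0.13 for Dnmt1 to Uhrf1, 0.34 to 0.56 for Dnmt3a to Dnmt3b, -0.0452 to 0.0703 for Tet2 to Tet3, -0.20 to 0.28 for Tet1 to Tet2 and -0.23 to 0.51 for Idh1 to Idh2. List medians ranged from -0.024 to 0.096 for methylation partners (0 to 2 called), 0.00821 to 0.0676 for Polycomb partners, 0.00635 to 0.0596 for other clonal hematopoiesis genes, 0.0106 to 0.129 for metabolism and 0.0525 to 0.184 for S phase.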
